A study of Mus musculus with 16 samples.

Results

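The mitochondrially encoded genes were examined in mouse inguinal white adipose tissue (iWAT), a fat depot under the skin of the groin. They were taken as every gene whose symbol begins with mt-, which gave 37 of the 54752 Ensembl gene IDs in the table, where 54723 IDs were paired with a symbol. The group holds 13 protein genes, 2 rRNA genes and 22 tRNA genes, all on chromosome M of GRCm38 (mm10). Of the protein genes, 7 encode subunits of complex I (NADH dehydrogenase), 1 encodes cytochrome b of complex III, 3 encode subunits of complex IV (cytochrome c oxidase) and 2 encode subunits of complex V (ATP synthase).

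Mitochondrial DNA is transcribed from both strands as long precursors, which are cut mainly at the tRNAs that lie between the other genes. Its protein genes encode core subunits of oxidative phosphorylation, and all other subunits of these complexes, including the whole of complex II, are encoded in the nucleus and imported. White adipocytes hold few mitochondria, while thermogenic adipocytes and skeletal muscle fibres hold many.

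RNA sequencing was performed on 16 iWAT libraries, 4 for each genotype, which were WT, Lepob/+, SOD1G93A and their double mutant SOD1G93A-Lepob/+. All 16 mice were labelled as females aged 90 days, on a C57BL/6 background. In Lepob/+ mice 1 of the Lep copies was the ob allele, which gives no working leptin. SOD1G93A mice held many copies of a mutant human SOD1 transgene, under the promoter of that gene, and model amyotrophic lateral sclerosis. SOD1G93A-Lepob/+ mice came from crossing Lepob/+ females with SOD1G93A males and carried both, and WT mice carried neither. The comparisons asked what leptin haploinsufficiency, the transgene and their combination do to the fat pad.

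The libraries held 36795376 to 61886313 counts. Adipocyte transcripts were abundant in each of them, with Adipoq between 1209 and 3262 CPM (counts scaled to a common library size after TMM normalisation). Several libraries stood apart. In Lepob/+ replicate 4, genes of the skeletal muscle list took 18.9% of all counts, against 0.722% in WT replicate 3 and less than that in the other 14. Summed T cell transcripts were at 1025 to 2116 CPM in WT replicates 1 and 2, Lepob/+ replicate 3 and SOD1G93A replicates 1, 2 and 4, and at 21.7 to 49.7 CPM in the other 10. The library labelled SOD1G93A-Lepob/+ replicate 3 had 0 CPM of Xist, the RNA that silences an X chromosome in females, and 13.6 CPM of the Y chromosome gene Ddx3y. Since these are bulk samples, a change in the share of a cell type and a change in RNA per cell cannot be told apart.

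Much of the mitochondrial sequence has a copy in the nuclear genome, and this sets what a count of an mt gene can mean. Nuclear copies were taken as 9 annotated genes listed by name and 2 more, Gm13339 and Gm4076, that matched an mt gene over at least 300 bases with at least 95% identity. Of these, 7 lie side by side on chromosome 1 between 24611535 and 24616197, on the minus strand. Gm10925 (chr1:24613974-24614651) matched mt-Atp6 (chrM:7927-8607, plus strand) over 678 bases with 0 mismatches. Gm28661 matched mt-Co2 over 681 bases, Gm28437 matched mt-Co3 over 783 bases, Gm28439 matched the first 876 bases of mt-Nd4, and Gm10222 matched mt-Nd4l over 294 bases, each with 0 mismatches. Sequences are given 5′ to 3′ from the GENCODE M21 transcripts of GRCm38. The first bases of mt-Atp6 and of its copy are shown because 1 library stood apart in the ratio of this pair, with the 43 bases that mt-Atp6 shares with the end of mt-Atp8 in capitals.
mt-Atp6: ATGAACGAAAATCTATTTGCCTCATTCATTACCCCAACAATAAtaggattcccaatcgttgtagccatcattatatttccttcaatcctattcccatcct
Gm10925: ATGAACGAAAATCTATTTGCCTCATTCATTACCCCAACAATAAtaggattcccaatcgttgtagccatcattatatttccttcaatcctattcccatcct
The other copies of this cluster differed from the mitochondrial gene by 1 base, shown in capitals, which is the only base by which the aligned stretches differ. Counted from 1 at the 5′ end of the mt gene, the substitution was T3C between mt-Nd3 and Gm28438 and A1066T between mt-Co1 and Gm29216.
mt-Nd3: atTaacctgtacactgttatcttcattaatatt
Gm28438: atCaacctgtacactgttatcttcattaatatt
mt-Co1: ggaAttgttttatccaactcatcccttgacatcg
Gm29216: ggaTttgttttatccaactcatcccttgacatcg

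Copies held from almost none to several times the counts of their mt gene. Gm10925 held 375% to 398% of the counts of mt-Atp6 in 15 libraries and 106% in SOD1G93A replicate 4. Gm28437 held 99.6% to 100% of the counts of mt-Co3 across the 16 libraries, Gm28661 held 99.7% to 99.9% of those of mt-Co2, Gm28438 held 98.4% to 99.6% of those of mt-Nd3 and Gm10222 held 99% to 99.4% of those of mt-Nd4l. Gm29216, which matches the last part of mt-Co1, held 18.8% to 22.4% of its counts, and Gm28439 held 27.5% to 37.1% of those of mt-Nd4. More diverged copies held few counts, such as Gm13340 with 0.371% to 0.641% of the counts of mt-Co1 and Gm4076 with at most 13 counts beside mt-Nd5. All copies together took 1.63% to 2.74% of the counts of a library. Reads from an mt gene and from an identical copy cannot be told apart, so the levels of mt-Co2, mt-Co3, mt-Nd4l, mt-Nd4 and mt-Atp6 are uncertain, as are those of mt-Nd3 and the last part of mt-Co1. The sources used here describe the counting as restricted to uniquely mapped reads, under which identical sequences would hold few counts, so how reads of these pairs were assigned is not known and the mt counts may leave out or share reads with the copies.

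Levels spanned more than 2 orders of magnitude per length. The protein gene with the highest level was mt-Co1, the catalytic subunit of complex IV, at 15580 ± 4001 CPM per kb (SD over 16 libraries). It was followed by mt-Cytb at 8691 ± 2436 CPM per kb, mt-Co3 at 6190 ± 1697, mt-Co2 at 6112 ± 1527 and mt-Nd1 at 5348 ± 2191. The next places were held by mt-Atp8, mt-Nd4, mt-Nd2, mt-Nd4l, mt-Atp6 and mt-Nd5, with means from 4581 down to 2094 CPM per kb, and by mt-Nd3 at 1030 ± 399.3. The place of mt-Atp6 is uncertain, since its identical copy Gm10925 held more counts than it did in every library. The spread between libraries was larger than many of these steps. Within a library mt-Co1 was above mt-Cytb and mt-Cytb above mt-Co3 in 16 of 16, while mt-Co3 was above mt-Co2 in 11 of 16, mt-Atp8 above mt-Nd4 in 9 of 16 and mt-Atp6 above mt-Nd5 in 6 of 16.

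At the low end, mt-Nd6, the only protein gene annotated on the minus strand, was at 31.9 ± 12.1 CPM per kb and was below each of the other 12 protein genes and both rRNA genes in every library. The rRNA genes, whose products form the mitochondrial ribosome and which libraries of mRNA mostly leave out, were at 277.5 ± 92.9 CPM per kb for mt-Rnr1 (12S) and 191.6 ± 90.2 for mt-Rnr2 (16S). These counts are no measure of the amount of mitochondrial ribosomes.

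**Figure D1:**
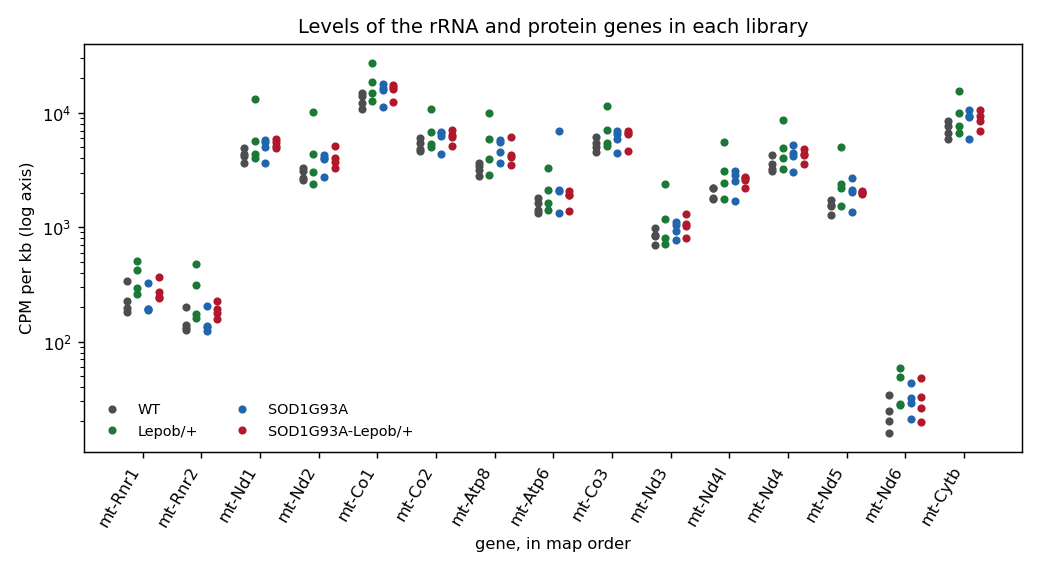
Level of the 2 rRNA genes and 13 protein genes in each of the 16 libraries, in map order, as TMM-scaled CPM per kb of gene on a log axis, coloured by genotype. mt-Co1 averaged 15580 CPM per kb and mt-Nd6 31.9, and the highest point of most genes is Lepob/+ replicate 4, while that of mt-Atp6 is SOD1G93A replicate 4.

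The tRNA genes, 59 to 75 bases long, were barely sampled. Only 6 of 22 passed the filter on low counts, namely mt-Tl1, mt-Tm, mt-Ti, mt-Tw, mt-Tg and mt-Td. Of these, mt-Tl1, the leucine tRNA that lies between mt-Rnr2 and mt-Nd1, had 8335 counts over the 16 libraries, followed by mt-Tm (methionine) with 2248, mt-Ti (isoleucine) with 740, mt-Tw (tryptophan) with 658, mt-Tg (glycine) with 351 and mt-Td (aspartate) with 234. The other 16 tRNA genes had between 2 counts (mt-Ts2) and 145 counts (mt-Tr) in all, and 7 of the 8 tRNA genes of the minus strand had at most 61 counts, the exception being mt-Ts1 with 125. They were not tested. The sequences of mt-Tl1, the most counted tRNA gene, and of mt-Tw, the mt gene with the smallest p in both comparisons of ob allele carriers with WT, are given whole.
mt-Tl1: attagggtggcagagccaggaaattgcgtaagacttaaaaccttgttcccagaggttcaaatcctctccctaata
mt-Tw: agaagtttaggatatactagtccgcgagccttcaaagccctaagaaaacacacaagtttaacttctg
mt-Tl1 (chrM:2676-2750) abuts both neighbours, while mt-Tw (chrM:4950-5016) overlaps the end of mt-Nd2 by 2 bases. Both lie on the plus strand.

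The proportions of the abundant protein genes to each other varied less between libraries than their levels did. mt-Co1 took 33.3% to 39.1% of the counts of the protein genes, mt-Cytb 14% to 16.6%, mt-Nd4 8.33% to 9.87% and mt-Nd1 6.89% to 9.79%. The lowest share of mt-Co1, mt-Co2, mt-Cytb and mt-Atp6 and the highest of mt-Nd1, mt-Nd2, mt-Nd3, mt-Nd4l and mt-Nd5 were all found in Lepob/+ replicate 4. The within-genotype SD of the log2 level had a median of 0.42 over the 13 genes, near the 0.42 over all genes tested, whereas that of their log2 share of the mt counts was 0.14. The shares varied most for mt-Atp6 (SD 0.45), at 1.75% to 2.02% in 15 libraries and 6.84% in SOD1G93A replicate 4, and for mt-Nd6 (SD 0.31), at 0.0174% to 0.0334%, and that of mt-Nd2 ranged from 4.96% to 8.26%. The deviations from the genotype means had a median correlation of 0.92 over the 78 pairs of protein genes (16 libraries, lowest 0.52), given as a description, as all values of a library share its scaling. The 13 genes are thus not 13 separate observations of a genotype.

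The protein genes took a modest part of each library. In WT they held 6.22, 5.32, 6.04 and 4.81% of all counts in replicates 1 to 4, and in Lepob/+ 5.95, 5.1, 8.22 and 8.48%. In SOD1G93A they held 7.63, 4.92, 6.84 and 7.44%, and in SOD1G93A-Lepob/+ 6.76, 6.73, 5.28 and 7.22%. The means were 5.6 ± 0.65%, 6.94 ± 1.67%, 6.71 ± 1.24% and 6.5 ± 0.84% (SD, n = 4 each), and every pair of genotypes overlapped. The 2 highest libraries of all were Lepob/+ replicates 4 and 3. Lepob/+ replicate 4 was the library with 18.9% of its counts in muscle genes, and with those genes left out of the total its share was 10.4%. Lepob/+ replicate 3 held the most Ucp1, the uncoupling protein of thermogenic adipocytes, at 312.6 CPM against at most 75.6 in the other 15, and 196.4 CPM of Cidea. The part of muscle and of thermogenic adipocytes in the mt share was not tested.

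**Figure D2:**
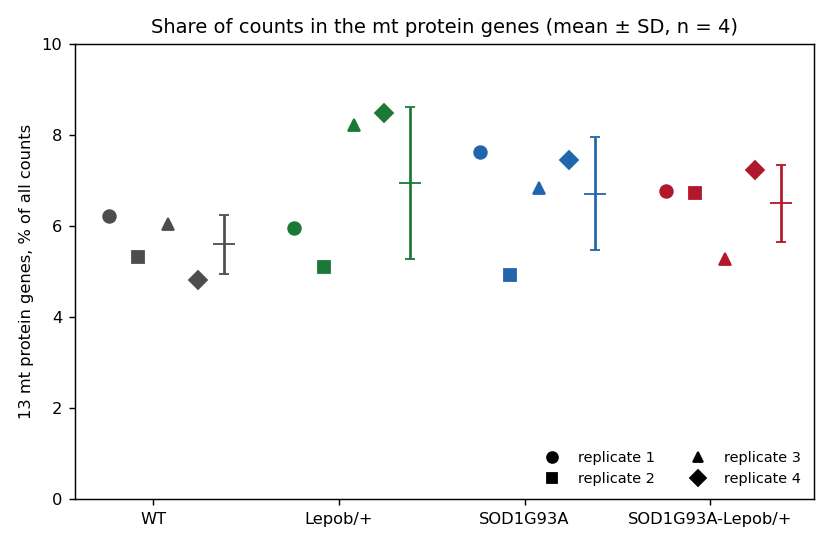
Share of all counts in the 13 mt protein genes, in percent, for each library by genotype (symbols give the replicate, bars the mean ± SD, n = 4). The 4 genotypes overlap, and Lepob/+ replicates 3 and 4 are the 2 highest points at 8.22 and 8.48%.

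The rRNA genes moved with the protein genes only in part. For each 100 counts of mt protein genes there were 0.62 to 1.34 rRNA counts in WT and 0.876 to 1.18 in Lepob/+. The range was 0.544 to 0.888 with the transgene alone and 0.686 to 1.08 with both alleles. WT replicate 2 was the highest of the 16 and SOD1G93A replicate 3 the lowest. These ranges overlapped between WT and each other genotype.

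Differences between genotypes were tested gene by gene with edgeR's quasi-likelihood test over the 19736 genes that passed the filter, of which 21 were mt genes (13 protein, 2 rRNA and 6 tRNA genes). With a Benjamini-Hochberg adjusted p under 0.05 as the threshold for a DEG, edgeR called 0 mt genes in each of the 6 comparisons, and it called 0% of all genes tested in each of them as well. None of the partner lists below held a gene called by edgeR either. DESeq2 called 0 mt genes in the same comparisons, also where, as for SOD1G93A-Lepob/+ with SOD1G93A, it called 565 genes (2.85% of those with an adjusted p) on all libraries and 1780 (8.11%) on the compared genotypes. Counts at an unadjusted p under 0.05 are given below beside the share of all genes that reached it, as a description.

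In Lepob/+ against WT, the comparison of leptin haploinsufficiency alone, all 21 mt genes were estimated higher and 0 passed the threshold. The 13 protein genes had a median log2 fold change of 0.59 (0.42 for mt-Co2 to 0.87 for mt-Nd5), against a median of 0.03 over all genes tested. An unadjusted p under 0.05 was reached by 10 of the 21, all higher, namely 5 protein genes, both rRNA genes and 3 tRNA genes, beside 3.56% of all genes on the higher side and 0.811% on the lower side. Since the levels vary together, this count does not rest on 10 separate genes. Without Lepob/+ replicate 4, the library rich in muscle transcripts, the median of the protein genes was 0.17 and the count 2. On library totals without TMM, where that library is not scaled up for its muscle transcripts (its TMM factor was 0.664 against 0.936 to 1.11 in the others), the median was 0.32.

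mt-Tw, the tryptophan tRNA gene, had the smallest p of the mt genes. Its levels were 0.619, 0.66, 0.491 and 0.423 CPM in WT replicates 1 to 4, 1.25, 0.733, 1.82 and 2.76 in Lepob/+, 1.02, 0.542, 0.414 and 0.993 in SOD1G93A and 0.863, 1.02, 0.839 and 1.63 in SOD1G93A-Lepob/+. All 4 Lepob/+ libraries lay above all 4 WT libraries, a pattern that 0.532% of all genes tested showed on the higher side. The counts behind these levels were small, 16 to 30 in WT and 30 to 83 in Lepob/+. The log2 fold change was 1.54 (SE 0.41, adjusted p = 1), and 1.16 without Lepob/+ replicate 4.

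mt-Rnr2, the 16S rRNA gene, was at 209.2, 314.1, 197.7 and 221.6 CPM in WT, 273.9, 252.6, 491.5 and 756 in Lepob/+, 325.4, 193.6, 212.1 and 215.2 in SOD1G93A and 247, 356.3, 301.9 and 281.4 in SOD1G93A-Lepob/+. Lepob/+ replicates 3 and 4 exceeded every other library, while replicates 1 and 2 fell within the WT range. The log2 fold change between Lepob/+ and WT was 0.91 (SE 0.31, adjusted p = 1), and 0.51 without Lepob/+ replicate 4.

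mt-Rnr1, the 12S rRNA gene, was at 216.5, 324, 186.1 and 171.6 CPM in WT, 247.4, 280.8, 400.5 and 480.6 in Lepob/+, 308.5, 184.5, 185.4 and 179.3 in SOD1G93A and 235.4, 352.4, 257.5 and 230.3 in SOD1G93A-Lepob/+. Again Lepob/+ replicates 3 and 4 were the highest of all, and WT replicate 2 lay above Lepob/+ replicates 1 and 2.

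mt-Nd5, a proton-pumping core subunit of complex I, was at 2766, 2328, 3178 and 2857 CPM in WT, 4013, 2794, 4381 and 9109 in Lepob/+, 3697, 2472, 4903 and 3863 in SOD1G93A and 3815, 3592, 3647 and 3701 in SOD1G93A-Lepob/+. Lepob/+ replicate 4 was above every other library, and Lepob/+ replicate 2 fell within the WT range. The log2 fold change was 0.87 (SE 0.30, adjusted p = 1), and 0.41 without Lepob/+ replicate 4.

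The highest and lowest protein genes showed the same order of libraries at the top. mt-Co1 was at 21670, 18680, 23120 and 16710 CPM in WT, 22920, 19400, 28960 and 42520 in Lepob/+, 27430, 17330, 25320 and 24490 in SOD1G93A and 25820, 24900, 19020 and 26930 in SOD1G93A-Lepob/+. mt-Nd6 was at 17.7, 10.6, 12.8 and 8.22 CPM in WT, 14.7, 14.4, 25.2 and 30.6 in Lepob/+, 15, 10.9, 16.7 and 22.7 in SOD1G93A and 13.7, 16.8, 10.3 and 24.9 in SOD1G93A-Lepob/+. For both genes Lepob/+ replicates 4 and 3 were the 2 highest libraries and every pair of genotypes overlapped.

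**Figure D3:**
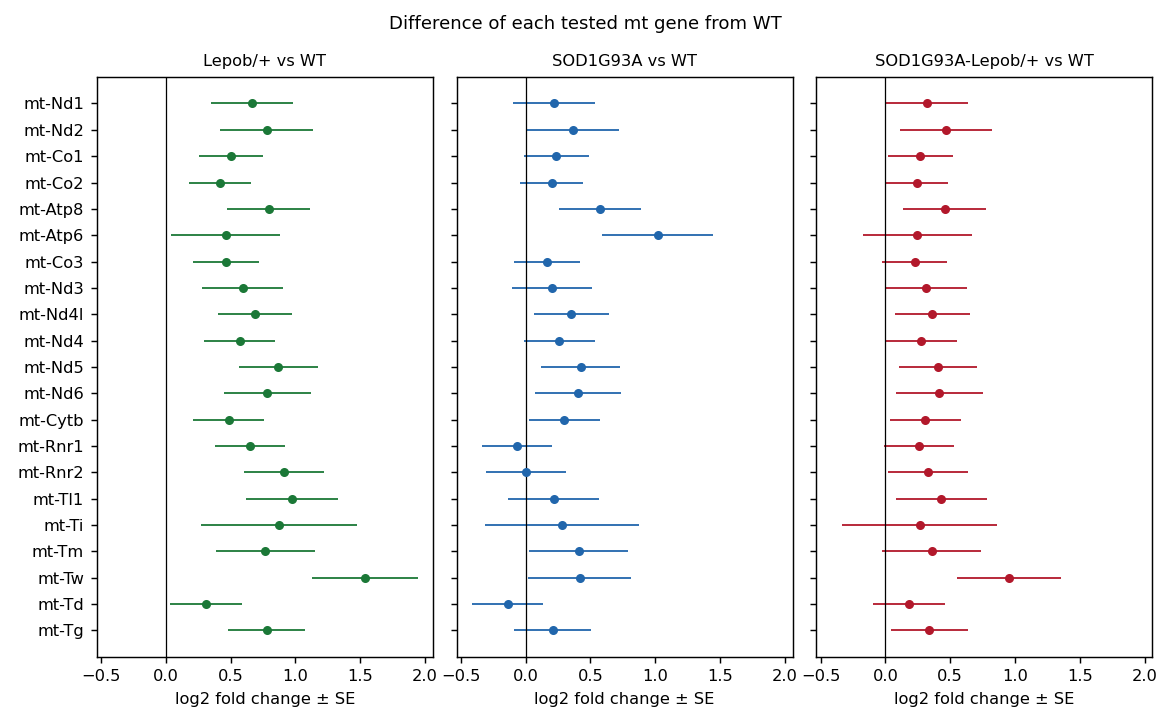
Log2 fold change from WT of the 21 tested mt genes in Lepob/+, SOD1G93A and SOD1G93A-Lepob/+ (edgeR estimates, bars are 1 SE, the 3 panels share the 4 WT libraries). All 21 estimates lie above 0 in Lepob/+ and in SOD1G93A-Lepob/+, mt-Atp6 is the highest in SOD1G93A at 1.02, and none passed the adjusted threshold.

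The nuclear partners of these genes were estimated higher in Lepob/+ as well, by less, with 0 called by edgeR in each list. Of the nuclear subunits of complex I, 37 of 39 were higher (median 0.30), with Ndufa1 at 0.30 (SE 0.16) and Ndufb11 at 0.38 (SE 0.21) having the smallest p. All 9 subunits of complex III were higher (median 0.28, with Uqcrc1 at 0.58 and Uqcrc2 at 0.43), as were 12 of 16 of complex IV (median 0.21), 17 of 17 of complex V (median 0.30, with Atp5g1 at 1.23 and Atp5a1 at 0.47) and 4 of 4 of complex II (median 0.25, with Sdha at 0.36 and Sdhb at 0.30). The largest differences in complex IV belonged to Cox6a2 at 5.06 and Cox7a1 at 2.80, the isoforms that striated muscle uses, of which Cox7a1 is also found in thermogenic fat. The mean log2 CPM of nuclear complex I subunits was 6.95 in Lepob/+ replicate 4 and 5.69 to 6.43 in the other 15 libraries, and that of the mt protein genes was 12.05 against 10.5 to 11.2. For complexes I, III and V, Lepob/+ replicates 1 to 3 lay within the WT range, at 5.923 to 6.075, 7.013 to 7.272 and 6.941 to 7.038. The WT ranges were 5.686 to 6.434, 6.743 to 7.524 and 6.732 to 7.358. How many nuclear subunits would be higher without Lepob/+ replicate 4 was not tested. All 23 skeletal muscle genes were estimated higher in Lepob/+ (median 5.22), and 7 of 9 thermogenic adipocyte markers (median 1.19). Cox7a1, named above, is on the thermogenic list. The mean log2 CPM of that list was 1.624 to 5.246 in Lepob/+ and 2.043 to 2.974 in WT. Ucp1 was at 1.026, 1.906, 312.6 and 0.8326 CPM in Lepob/+ replicates 1 to 4, and Cidea at 15.43, 16.96, 196.4 and 4.763 CPM. In WT they were at 1.479 to 3.252 and 14.83 to 40.5 CPM. The part of the muscle and thermogenic lists in the difference of the mt genes was not tested.

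Genes that act on mitochondrial DNA and RNA showed smaller differences. Of the transcription list, 6 of 10 were higher (median 0.02, with the elongation factor Tefm at 0.56 and the initiation factor Tfb2m at 0.35). Of the replication and maintenance list, 9 of 13 were higher (median 0.08, with the ribonucleotide reductase subunit Rrm2b at 0.43 and the single-strand binding protein Ssbp1 at 0.14). Of the RNA processing and turnover list, 16 of 19 were higher (median 0.08, with Lrpprc, which stabilises mt mRNAs, at 0.37 and Grsf1 at 0.26). For protein synthesis in mitochondria, 15 of 20 tRNA synthetases and amidotransferase subunits (median 0.10, with Lars2 at 0.38 and Gatc at 0.40), 10 of 12 translation factors (median 0.14, with Taco1 at 0.65 and Gfm2 at 0.44) and 56 of 78 ribosomal proteins (median 0.07, with Mrpl15 and Mrpl23 at 0.32 each) were higher. In Lepob/+ replicate 4 the mean log2 CPM was 5.083 for RNA processing, 5.23 for translation factors and 5.357 for ribosomal proteins. The other Lepob/+ libraries lay at 4.451 to 4.768, 4.439 to 4.61 and 4.72 to 4.853. WT libraries were at 4.54 to 4.704, 4.374 to 4.755 and 4.673 to 5.109. How the counts of higher genes change without Lepob/+ replicate 4 was not tested. The 9 biogenesis regulators were all higher (median 0.17, with Ppargc1a at 0.71 and Gabpa at 0.19). The 10 nuclear copies that passed the filter (all but Gm4076) form a separate list. Their median was 0.54, near the 0.59 of the mt protein genes, with Gm28439 at 0.76 and Gm10222 at 0.69. Reads of an identical copy and of its mt gene cannot be told apart.

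**Figure D4:**
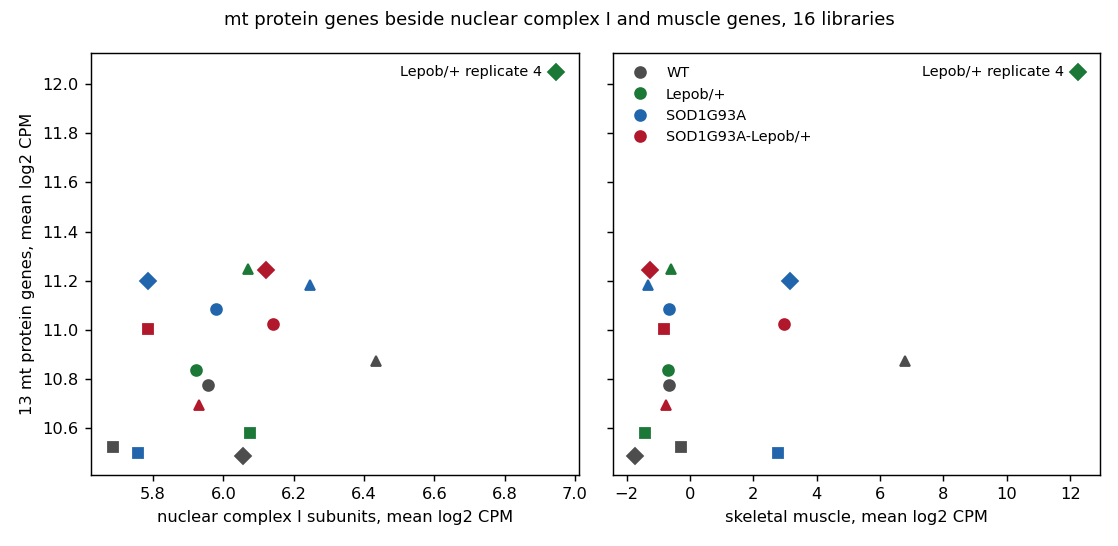
Mean log2 CPM of the 13 mt protein genes against that of the nuclear complex I subunits (left) and of the skeletal muscle list (right) in the 16 libraries, coloured by genotype, with symbols by replicate. Lepob/+ replicate 4 is the highest point on every axis (12.05 for the mt protein genes, 6.95 for complex I), and the other 15 libraries lie between 10.5 and 11.2 for the mt protein genes.

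In SOD1G93A against WT, the comparison of the transgene alone, the 13 protein genes were all estimated higher and 0 passed the threshold. Their median log2 fold change was 0.30 (0.17 for mt-Co3 to 1.02 for mt-Atp6), against 0.02 over all genes, and lay between 0.18 and 0.44 over all alternatives run. The rRNA genes were at -0.07 (mt-Rnr1) and 0.01 (mt-Rnr2), and 5 of 6 tRNA genes were higher. Only mt-Atp6 had an unadjusted p under 0.05, 1 of 21 mt genes, beside 1.64% of all genes on the higher side and 0.917% on the lower side.

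mt-Atp6, the membrane subunit of ATP synthase that conducts protons, owed its estimate to 1 library. It was at 1111, 964.9, 1222 and 897 CPM in WT, 1117, 971.2, 1446 and 2242 in Lepob/+, 1425, 914.9, 1408 and 4748 in SOD1G93A and 1310, 1301, 941.3 and 1422 in SOD1G93A-Lepob/+. SOD1G93A replicate 4 was above every other library, while replicate 2 lay within the WT range and replicates 1 and 3 just above it. The log2 fold change was 1.02 (SE 0.43, adjusted p = 0.998), and 0.24 without that library.

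The genes on either side of mt-Atp6 did not stand apart in that library to the same degree. mt-Atp6 took 6.84% of the mt protein counts in SOD1G93A replicate 4, against 1.75% to 2.02% elsewhere. mt-Co3, which follows it on the same strand, took 6.61% there against 6.84% to 8.3% elsewhere, and mt-Atp8, which precedes it, took 1.68% against 1.16% to 1.68%. The high count of mt-Atp6 is part of that total, which lowers the shares of the other genes in this library. The number of mt-Atp6 counts per count of mt-Atp8, with which it overlaps, was 4.06 there and 1.09 to 1.67 elsewhere. Its counts also stood in another relation to the identical nuclear copy, whose sequence is given above. mt-Atp6 had 94.4% of the counts of Gm10925 in SOD1G93A replicate 4 (205670 and 217898 counts) and 25.2% to 26.6% in the other 15. Gm10925 itself, at 217898 counts, lay within the range of 130169 to 310016 of the others. Of 8371 genes with a mean level above 20 CPM, 2 were more than 2-fold above all other libraries in SOD1G93A replicate 4, and mt-Atp6 was the mt gene among them. Which of the 2 sequences the reads came from cannot be told from the counts.

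**Figure D5:**
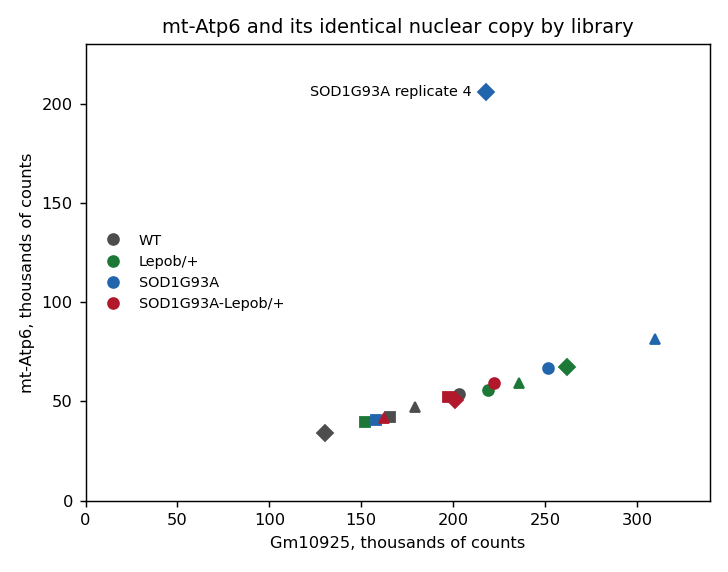
Counts of mt-Atp6 against those of its identical nuclear copy Gm10925, for the 16 libraries, coloured by genotype, with symbols by replicate. In 15 libraries mt-Atp6 held 25.2% to 26.6% of the counts of Gm10925, and in SOD1G93A replicate 4 it held 94.4%.

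mt-Atp8, the short accessory subunit of ATP synthase, followed with a log2 fold change of 0.57 (SE 0.32, adjusted p = 0.998). It was at 705.3, 649.2, 746.2 and 570.8 CPM in WT, 803.4, 582.7, 1199 and 2051 in Lepob/+, 934.9, 739.2, 1131 and 1169 in SOD1G93A and 829.6, 868.7, 716.2 and 1255 in SOD1G93A-Lepob/+. SOD1G93A replicate 2 lay just within the WT range and the other 3 SOD1G93A libraries above it. mt-Nd5 was the next, at 0.42 (SE 0.30, adjusted p = 0.998).

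The nuclear subunits of the same complexes were estimated slightly lower in SOD1G93A, with 0 called. In complex I, 36 of 39 were lower (median -0.11, with Ndufb3 at -0.24 and Ndufs6b at -0.41). The medians were -0.06 in complex III (8 of 9 lower, Uqcr11 at -0.25 and Uqcrq at -0.21), -0.12 in complex IV (15 of 16 lower, Cox4i2 at -0.39 and Ndufa4 at -0.19), -0.10 in complex V (15 of 17 lower, Atp5j2 at -0.26 and Atp5d at -0.16) and -0.03 in complex II (3 of 4 lower, Sdhc at -0.13 and Sdhd at -0.06). Mitochondrial and nuclear subunits thus had estimates of opposite sign in this comparison, neither past the threshold, and the difference between them was not tested. WT replicate 3 had a mean log2 CPM of 6.434 in complex I, 7.524 in complex III and 7.358 in complex V. The other WT libraries lay lower, at 5.686 to 6.055, 6.743 to 7.093 and 6.732 to 7.036. SOD1G93A libraries were at 5.758 to 6.247, 6.828 to 7.307 and 6.744 to 7.222. How the nuclear estimates change without WT replicate 3 was not tested. Ribosomal proteins were lower for 62 of 78 (median -0.06, with Mrpl36 at -0.16 and Mrps34 at -0.19).

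For genes acting on mt DNA and RNA, 8 of 10 transcription genes were higher in SOD1G93A (median 0.19, with Mterf3 at 0.21 and Tefm at 0.41), 9 of 13 maintenance genes (median 0.08, with Primpol at 0.45 and Rrm2b at 0.34) and 12 of 19 RNA processing genes (median 0.13, with the polynucleotide phosphorylase Pnpt1 at 0.23 and the RNase P subunit Trmt10c at 0.34). tRNA synthetases were higher for 15 of 20 (median 0.09, Gatb at -0.31 and Tars2 at 0.28), translation factors for 7 of 12 (median 0.02, with Mtrf1l at 0.39 and Mrrf at -0.14) and biogenesis regulators for 8 of 9 (median 0.20, with Gabpa at 0.22 and Nrf1 at 0.27). The 10 nuclear copies had a median of 0.24, with Gm13339 at 1.44 and Gm13341 at 0.55. Lymphoid markers were also higher in SOD1G93A, with all 18 T cell genes up in the estimate (median 0.92), and red blood cell genes lower (median -1.06 over 5 genes), and their part in these values was not tested.

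In SOD1G93A-Lepob/+ against SOD1G93A, the comparison of leptin haploinsufficiency on the transgenic background, most mt protein genes differed little between the genotypes. The median log2 fold change of the 13 was 0.02 (-0.77 for mt-Atp6 to 0.11 for mt-Nd3), with 10 of 13 higher, against 0.00 over all genes. Both rRNA genes were at 0.33. None of the 21 reached an unadjusted p under 0.05, in a comparison where 4.19% of all genes did so on the higher side and 12.3% on the lower side. The smallest p belonged to mt-Atp6, at -0.77 (SE 0.42, adjusted p = 0.365), which was 0.00 without SOD1G93A replicate 4. mt-Tw was at 0.54 (SE 0.40, adjusted p = 0.497) and mt-Rnr1 at 0.33 (SE 0.27, adjusted p = 0.539).

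Nuclear subunits showed small medians in this comparison too. They were 0.06 in complex I (25 of 39 higher, Ndufb3 at 0.36 and Ndufa7 at 0.22), -0.04 in complex III (Uqcrh at -0.09 and Uqcr11 at 0.13), 0.02 in complex IV (Cox7a2l at -0.21 and Cox4i2 at 0.33), 0.01 in complex V (Atp5mpl at -0.29 and Atp5j2 at 0.28) and -0.04 in complex II (Sdhb at -0.17 and Sdhc at 0.12). Maintenance genes were lower for 9 of 13, with Primpol at -0.61 (SE 0.18, adjusted p = 0.261) and Polg2, the accessory subunit of the mt DNA polymerase, at -0.36, and DESeq2 called 1 of the 13 on all libraries and 2 on the compared genotypes, beside 2.85% and 8.11% of all genes. Transcription genes were lower for 7 of 10 (Mterf2 at -0.43 and Mterf3 at -0.18), and RNA processing genes for 12 of 19, with the oligoribonuclease Rexo2 at 0.33 and Ptcd2 at -0.39 (DESeq2 called 2 of the 19 on the compared genotypes, beside 8.11% of all genes). Synthetases were lower for 13 of 20 (Hars2 at -0.23 and Tars2 at -0.28), translation factors for 7 of 12 (Mrrf at 0.32 and Mtrf1l at -0.31) and biogenesis regulators for 9 of 9 (Nrf1 at -0.31 and Gabpa at -0.17), while ribosomal proteins were higher for 48 of 78 (Mrpl24 at -0.24 and Mrps6 at 0.58). Of the copies, Gm13341 was at -0.18 and Gm28438 at 0.11. All 18 T cell genes (median -5.87) were estimated lower in SOD1G93A-Lepob/+, with 3 of the 4 SOD1G93A libraries being among those rich in T cell transcripts, and the part of this in the mt values was not tested.

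In SOD1G93A-Lepob/+ against Lepob/+, all 21 mt genes were estimated lower and 0 passed the threshold. The protein genes had a median of -0.29 (-0.46 for mt-Nd5 to -0.18 for mt-Co2), against -0.06 over all genes, and 0.08 without Lepob/+ replicate 4, so the direction turned on that library. None of the 21 reached an unadjusted p under 0.05, which 1.96% of all genes did on the higher side and 6.28% on the lower side. The 3 smallest p belonged to mt-Rnr2 at -0.58 (SE 0.31, adjusted p = 0.632), mt-Tl1 at -0.54 (SE 0.35, adjusted p = 0.695) and mt-Nd5 at -0.46 (SE 0.30, adjusted p = 0.696). Without Lepob/+ replicate 4 mt-Rnr2 was at -0.19 and mt-Nd5 at -0.01.

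mt-Tl1 was at 11.5, 8.56, 8.37 and 8.3 CPM in WT, 10.9, 8.21, 18.6 and 34.6 in Lepob/+, 13.2, 7.5, 9.72 and 12.3 in SOD1G93A and 13.6, 10.7, 10.2 and 15.2 in SOD1G93A-Lepob/+. As with the rRNA genes beside it, Lepob/+ replicates 4 and 3 were the highest of the 16 libraries, and Lepob/+ replicates 1 and 2 overlapped with SOD1G93A-Lepob/+ or lay below it.

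The nuclear lists were estimated lower in the same comparison, which also held Lepob/+ replicate 4. Medians were -0.36 in complex I (37 of 39 lower, Ndufa6 at -0.48 and Ndufb11 at -0.46), -0.42 in complex III (Uqcrc1 at -0.71 and Uqcrc2 at -0.48), -0.27 in complex IV (Cox7a1 at -3.28 and Cox6a2 at -8.45, with 1 of 16 called by DESeq2 on all libraries beside 0.221% of all genes), -0.36 in complex V (Atp5g1 at -1.35 and Atp5g2 at -0.36) and -0.32 in complex II (Sdha at -0.44 and Sdhb at -0.48). Medians of the other lists lay between -0.11 and -0.25, with Mterf2 at -0.41 and Polrmt at -0.28 for transcription, Polg2 at -0.39 and Top3a at -0.34 for maintenance, and Rexo2 at 0.35 and Ptcd2 at -0.37 for RNA processing. For synthesis, Sars2 was at -0.48, Aars2 at -0.37, Taco1 at -0.70, Gfm2 at -0.53, Mrpl19 at -0.31 and Mrpl42 at -0.78, and of the regulators Ppargc1a was at -1.09 and Esrra at -0.45. The copies had a median of -0.28, with Gm28439 at -0.39 and Gm13341 at -0.40. In Lepob/+ replicate 4 the mean log2 CPM was 6.947 for complex I, 5.083 for RNA processing and 5.357 for ribosomal proteins. The other Lepob/+ libraries lay at 5.923 to 6.075, 4.451 to 4.768 and 4.72 to 4.853. SOD1G93A-Lepob/+ libraries were at 5.786 to 6.142, 4.515 to 4.692 and 4.713 to 4.916. How the nuclear estimates change without Lepob/+ replicate 4 was not tested. All 23 muscle genes were estimated lower (median -9.12), with Lepob/+ replicate 4 among the libraries compared, as were all 18 T cell genes (median -4.32), with Lepob/+ replicate 3 among them, and their part in the mt values was not tested.

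In SOD1G93A-Lepob/+ against WT, all 21 mt genes were estimated higher and 0 passed the threshold. The protein genes had a median of 0.32 (0.23 for mt-Co3 to 0.47 for mt-Nd2), against 0.01 over all genes, and lay between 0.21 and 0.41 over all alternatives run. These 8 libraries did not include the one rich in muscle transcripts, though WT replicate 3 held some. They differed in lymphoid transcripts, as all 18 T cell genes (median -4.99) and all 12 B cell genes (median -4.97) were estimated lower in SOD1G93A-Lepob/+, with WT replicates 1 and 2 rich in them, and the part of this in the mt values was not tested. Only mt-Tw reached an unadjusted p under 0.05, beside 1.22% of all genes on the higher side and 3.52% on the lower side. It was at 0.96 (SE 0.40, adjusted p = 0.951), followed by mt-Atp8 at 0.46 (SE 0.32, adjusted p = 0.951) and mt-Nd5 at 0.41 (SE 0.30, adjusted p = 0.951).

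For 3 mt genes, mt-Tw, mt-Nd5 and mt-Nd4l, all SOD1G93A-Lepob/+ libraries lay above all WT libraries, which 1.98% of all genes tested did on the higher side. mt-Nd4l, a small hydrophobic subunit of complex I, was at 649.3, 528.3, 650.4 and 535.3 CPM in WT and 814.4, 772.2, 659.7 and 792 in SOD1G93A-Lepob/+, with the library labelled replicate 3 nearest to WT. It was at 728, 519, 923.1 and 1639 in Lepob/+ and at 847.1, 500.4, 918.3 and 753.6 in SOD1G93A, so that these genotypes both overlapped with WT. For mt-Nd5 the 4 SOD1G93A-Lepob/+ libraries were within 3592 to 3815 CPM, a narrower range than in any other genotype. With edgeR fitted on these genotypes alone, 6 of the 21 mt genes had an unadjusted p under 0.05, all 6 on the higher side, beside 2.69% of all genes on that side.

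The estimates of the nuclear lists did not share this direction, in a comparison that again included WT replicate 3. Its mean log2 CPM of complex I subunits was 6.434. The other WT libraries lay at 5.686 to 6.055 and SOD1G93A-Lepob/+ at 5.786 to 6.142. How the log2 fold changes of these lists change without WT replicate 3 was not tested. Complex I had a median of -0.05 (28 of 39 lower, Ndufs8 at -0.22 and Ndufa6 at -0.15), complex III of -0.12 (Uqcrh at -0.11 and Uqcrfs1 at -0.17), complex IV of -0.12 (Cox6a2 at -3.39 and Cox7a2l at -0.16), complex V of -0.08 (Atp5d at -0.17 and Atp5g2 at -0.12) and complex II of -0.05 (Sdhb at -0.17 and Sdha at -0.08). Those of the remaining nuclear lists lay between -0.09 and -0.02, with Tefm at 0.31, Mterf1a at -0.26, Polg2 at -0.31, Top3a at -0.21, Ptcd2 at -0.34 and Rexo2 at 0.21. Rars2 was at 0.16, Cars2 at -0.16, Oxa1l at -0.10, Mrrf at 0.18, Mrps34 at -0.21, Mrpl24 at -0.17, Esrra at -0.28 and Ppargc1a at -0.38. The exception was the list of nuclear copies, where all 10 tested were estimated higher, with a median of 0.29, Gm13339 at 1.25 and Gm10222 at 0.36.

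The interaction, that is whether the ob allele differed in its effect between mice with and without the transgene, was estimated below 0 for all 13 protein genes and 0 passed the threshold. The median was -0.57 (-1.23 for mt-Atp6 to -0.38 for mt-Co2), against -0.09 over all genes. It was -0.17 without Lepob/+ replicate 4. None of the 21 had an unadjusted p under 0.05, beside 2.16% of all genes on the higher side and 5.82% on the lower side. mt-Nd5 was at -0.88 (SE 0.43), mt-Atp6 at -1.23 (SE 0.60) and mt-Atp8 at -0.91 (SE 0.45), each with an adjusted p of 0.564, and the value of mt-Atp6 was -0.45 without SOD1G93A replicate 4.

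Estimates below 0 also prevailed among the partner lists in the interaction, with medians of -0.23 in complex I (34 of 39), -0.33 in complex III (9 of 9) and -0.30 in complex V (15 of 17), and muscle and T cell genes were below 0 throughout. Rrm2b was at -0.65, Primpol at -0.62, Mterf2 at -0.66, Tefm at -0.65, Rexo2 at 0.47 and Fastkd1 at -0.48 in the lists acting on mt DNA and RNA. Tars2 was at -0.47, Aars2 at -0.50, Mtrf1l at -0.55, Taco1 at -0.86, Mrpl19 at -0.36, Mrpl15 at -0.43, Gabpa at -0.36 and Ppargc1a at -0.99. Among nuclear subunits, Ndufs1 was at -0.61, Ndufa6 at -0.43, Uqcrc1 at -0.67, Uqcrc2 at -0.58, Cox7a1 at -3.22, Cox6a2 at -6.89, Atp5mpl at -0.63, Atp5g1 at -1.22, Sdha at -0.47 and Sdhb at -0.47. The copies Gm13341 and Gm28439 were at -0.95 and -0.79. All these values are log2 differences of differences, and edgeR called 0 of them. Lepob/+ replicate 4 was among the libraries behind them. Its mean log2 CPM was 6.947 in complex I, 8.073 in complex III and 8.086 in complex V. The other Lepob/+ libraries lay at 5.923 to 6.075, 7.013 to 7.272 and 6.941 to 7.038. How the interaction of the partner lists changes without that library was not tested.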

How the data were processed

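RNA-seq of iWAT was available for 16 libraries, 4 of each genotype. Per the labels and the paper's methods, the authors trimmed reads (fastp), mapped them to mm10 (HISAT2 2.1.0) and assigned what is described as unique hits to genes (featureCounts 2.0.2). The counting options could not be checked, and identical gene pairs hold near-equal counts. The deposited values are raw counts with no normalization. The kit is given differently by the labels and the paper, and the strand setting and annotation release are not given in the sources used here. Genes were kept by filterByExpr (minimum count 10, total 15), scaled by TMM and tested with edgeR 4.0.16 (R 4.3.3, quasi-likelihood, 1 fit of the 16 libraries), with Benjamini-Hochberg adjustment at 0.05. DESeq2 1.42.0 was an alternative. CPM are edgeR counts on TMM library sizes, log2 values used a prior count of 1, and CPM per kb divides by the GRCm38 gene length (GENCODE annotation), which does not allow for mapping. The paper gives its n as numbers of animals, so the libraries were taken as separate mice. If any were not, the p-values would in part measure technical spread. Named in each comparison were the 3 mt genes and the 2 genes of each partner list with the smallest p. Levels were given for the rRNA genes, mt-Co1, mt-Nd6 and mt genes named. mt-Nd4l was named after its values were seen. Nuclear copies were sought by blastn of GENCODE transcripts, as no genome was aligned. Comparisons share libraries. Members and lists were chosen with earlier results of these data known. On counts simulated for SOD1G93A-Lepob/+ against SOD1G93A (19445 genes), edgeR recovered 7 of 100 genes changed by log2 1 and 74 of 100 changed by log2 2, with 3 false calls.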

Additional observations from a re-analysis of the deposited data

Results flagged for a closer look

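In 5 of 88 groups of 4 libraries tested, 1 library lay far from the other 3 (a gap above Dixon's critical value), which chance does in about 1 of 20 groups. mt-Atp6 was at 4748 CPM in SOD1G93A replicate 4 against 914.9 to 1425 in the other SOD1G93A libraries. mt-Rnr1 was at 308.5 CPM and mt-Rnr2 at 325.4 CPM in SOD1G93A replicate 1, against at most 185.4 and 215.2 in the others of that genotype. mt-Tl1 was at 11.53 CPM in WT replicate 1 against 8.303 to 8.558 in the other WT libraries. mt-Co3 was at 3655 CPM in the library labelled SOD1G93A-Lepob/+ replicate 3, below the 5167 to 5417 of the other 3.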

How the results depend on the processing

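The settings tried called 0 mt genes in each comparison. Leaving out each library in turn gave a median log2 fold change of the 13 protein genes of 0.1694 to 0.7909 for Lepob/+ against WT, -0.4749 to 0.0817 for SOD1G93A-Lepob/+ against Lepob/+ and of -0.7484 to -0.1738 for the interaction, and for mt-Atp6 in SOD1G93A-Lepob/+ against SOD1G93A of -1.0223 to 0.002. Without Lepob/+ replicate 4, SOD1G93A replicate 4 and the SOD1G93A-Lepob/+ library with Y chromosome transcripts, chosen after seeing the data, these values were 0.169, -0.0404 and 0.111, the median for SOD1G93A-Lepob/+ against Lepob/+ was 0.1963 and mt-Tl1 there was at 0.068. The number of mt genes at an unadjusted p under 0.05 ranged over the settings from 2 to 19 for Lepob/+ against WT (10 as reported), 0 to 2 for SOD1G93A against WT (1), 0 to 7 for SOD1G93A-Lepob/+ against WT (1), 0 to 1 against SOD1G93A (0), 0 to 4 against Lepob/+ (0) and 0 to 7 for the interaction (0). Genes called in all were 0 by edgeR (at most 2 fitted on the compared genotypes), 1 to 565 by DESeq2 on all libraries and 5 to 1780 on the compared genotypes over the 5 pairs. With the replicate number as a block, the medians were 0.5059 for Lepob/+ against WT, 0.2752 for SOD1G93A against WT and -0.465 for the interaction, and no call changed. Replicate numbers were taken only as names, since 5 of 24 same-number pairs correlated above 0.1 and 8 below -0.1. With muscle genes left out of the total, the mt share of Lepob/+ replicate 4 was 10.4%. Counts of mt tRNA genes limit what can be seen of them at this depth, and 16 were not testable.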
